A study of Mus musculus with 12 samples.

Results

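Zscan4, Usp17l and Tcstv are 3 multicopy gene families of the mouse that are known for their expression in the 2-cell embryo. The genes described here are the rows of the deposited expression tables whose gene name starts with Zscan4, Usp17l or Tcstv. There are 12 of them among 36883 rows: 5 Zscan4 rows (Zscan4b, Zscan4c, Zscan4d, Zscan4e and Zscan4f), 5 Usp17l rows (Usp17la, Usp17lb, Usp17lc, Usp17ld and Usp17le) and 2 Tcstv rows (Tcstv1 and Tcstv3). They were compared between wild-type and Drosha-deficient mouse embryonic stem (ES) cells. Drosha, a nuclear ribonuclease, makes the first cut in the maturation of most microRNAs. Both genotypes were cultured with fetal bovine serum and leukemia inhibitory factor, and no treatment is named. The labels of the RNA samples give no strain, parent line or clone; those of the methylation samples give the wild type as AB1 cells of the 129Sv/Ev background and the Drosha-deficient cells as derived from them. The labels do not say how Drosha was disrupted. For each genotype there was 1 library of poly(A)-selected mRNA and 1 of long RNA, so no difference below has a replicate check and no p-value was computed.

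In ES cell cultures a small and changing fraction of cells passes through a state in which genes of the 2-cell embryo are switched on, and Zscan4 is the usual marker of that state. Zscan4 proteins carry a SCAN domain and zinc fingers, lie on telomeres during these bursts and are known for telomere lengthening and genome stability. Usp17l genes encode deubiquitinating enzymes that were first described as induced by cytokines. Tcstv genes are named for 2-cell-stage transcripts, and their products have also been linked to telomere length. The transcription factor Dux is known to switch on many genes of this state, Dppa2 and Dppa4 act upstream of Dux, and the chromatin regulators Trim28, Kdm1a and the CAF-1 complex are known to hold the state back.

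The copies of Zscan4 and of Usp17l were compared in the stretches just before their starts. Promoter sequences of 8 of the 12 genes were in the RefSeq table for GRCm38.p6. Below are the 250 bases before the RefSeq start of the 4 genes of these with the highest level in Drosha-deficient mRNA, at most 2 per family. Capitals mark TATAAA, the core of a TATA box, and TGATAGAATCA. The latter is a match, on the other strand, to TGATT followed by any 2 bases and ATCA, a pattern of the kind that Dux is known to bind, here called the Dux-like pattern.
Zscan4f: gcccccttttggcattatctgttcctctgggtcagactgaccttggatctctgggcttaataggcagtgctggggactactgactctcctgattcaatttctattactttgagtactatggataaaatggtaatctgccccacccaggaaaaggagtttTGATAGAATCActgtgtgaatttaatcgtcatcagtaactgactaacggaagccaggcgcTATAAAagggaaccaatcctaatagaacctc
Zscan4c: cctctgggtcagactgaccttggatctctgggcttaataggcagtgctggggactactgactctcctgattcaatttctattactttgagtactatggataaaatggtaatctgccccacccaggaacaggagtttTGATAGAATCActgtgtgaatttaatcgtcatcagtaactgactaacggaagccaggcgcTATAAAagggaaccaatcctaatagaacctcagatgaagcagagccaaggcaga
Usp17lb: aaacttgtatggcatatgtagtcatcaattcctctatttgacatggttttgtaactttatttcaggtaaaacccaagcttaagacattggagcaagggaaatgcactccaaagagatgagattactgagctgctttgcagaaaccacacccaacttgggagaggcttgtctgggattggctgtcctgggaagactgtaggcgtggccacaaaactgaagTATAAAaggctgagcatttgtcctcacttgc
Usp17lc: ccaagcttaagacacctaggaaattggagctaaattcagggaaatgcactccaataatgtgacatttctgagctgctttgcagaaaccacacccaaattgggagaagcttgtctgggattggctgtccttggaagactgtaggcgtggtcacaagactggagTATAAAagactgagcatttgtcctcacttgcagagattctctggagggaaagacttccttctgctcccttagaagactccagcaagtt

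The Zscan4f stretch lies at chr7:11397665-11397914 on the plus strand and that of Zscan4c at chr7:11005495-11005744 on the plus strand. The Usp17lb stretch lies at chr7:104842584-104842833 on the minus strand and that of Usp17lc at chr7:103416446-103416695 on the plus strand. Zscan4c and Zscan4f were identical in 226 of 227 aligned columns (99.6%). Over the 6 pairs of Zscan4b, Zscan4c, Zscan4d and Zscan4f identity ran from 94.7% to 99.6%, and over the 6 pairs of Usp17la, Usp17lb, Usp17lc and Usp17ld from 85.5% to 97.3%. None of these stretches was available for Zscan4e, Usp17le or the Tcstv genes. The stretches lie before the start, so they do not show how alike the transcripts are, which was not measured. Near-identical copies can share reads, so a family sum is given beside the single rows and the split between copies is uncertain.

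The Dux-like pattern, searched on both strands, was found in all 4 Zscan4 stretches and in none of the 4 Usp17l stretches. Among all 32851 stretches of this length in the RefSeq table, 58 (0.177%) held it. In Zscan4f and Zscan4b it began 91 bases before the start, in Zscan4c 114 and in Zscan4d 125. TATAAA was found in the same 4 Zscan4 stretches and in Usp17lb, Usp17lc and Usp17ld, against 12.4% of all stretches. TGCACAC, a pattern linked to Zscan4 binding, and CACGTG, the E-box of the MAX and MGA proteins, were in none of the 8; 3.67% and 6.02% of all stretches held them. The 4 Zscan4 stretches are copies of each other and do not count as separate matches. Outside the 3 families 52 genes had the Dux-like pattern in their stretch, and 7 of them could be compared in both fractions. Of the 7, 1 was higher by at least 2-fold in both, where 4.58% of all rows compared in both were. This gene was Abcb5, a transporter gene, with 0.256 and 2.81 FPKM in mRNA. Its wild-type level in long RNA was 0.0945 FPKM. The comparison took rows at 1 FPKM or more in either library, so Abcb5 entered only through its Drosha-deficient level and could not be lower. FPKM stands for fragments per unit of transcript length and of sequencing depth, and values are given as wild type first and Drosha-deficient second.

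Drosha itself had 42.1 and 6.22 FPKM in mRNA, 6.77-fold lower, and 21.2 and 4.34 FPKM in long RNA, 4.87-fold lower, so the direction matched the labels. From the steps of the lowest values, the mRNA libraries held about 21600000 and 24300000 fragments and the long RNA libraries about 18400000 and 21900000. The labelled cell type was checked with ES cell markers: none of 10 in mRNA and none of 9 in long RNA was called higher or lower, and their summed levels were 2319 and 2396 FPKM in mRNA. At 1.5-fold Tfcp2l1 was lower in mRNA, Tfcp2l1 and Klf4 were lower in long RNA, and none was higher. The log2 differences of Tfcp2l1 and Klf4 in long RNA were -0.93 and -0.88. Markers of fibroblasts had lower sums, 188.9 against 20.8 FPKM in mRNA and 98.8 against 9.73 FPKM in long RNA. In each fraction 6 of 9 measured were called lower, where 7.93% of all rows were in mRNA and 6.89% in long RNA. Twist1 went the other way, 2.13-fold higher in mRNA and 2.21-fold in long RNA, but was not called under the rule below. Dcn, below 1 FPKM in every library and so not compared, went from 0.0752 to 0.999 FPKM in mRNA. Its long RNA level went from 0.0296 to 0.967 FPKM. Trophoblast markers had lower sums too, 189.3 against 47.9 FPKM in mRNA and 144 against 27.2 FPKM in long RNA. Of 8 measured in mRNA 6 were lower, and of 5 in long RNA 4, beside the same shares of all rows. The keratin gene Krt18 alone held 117.7 FPKM of the wild-type sum in mRNA and 96.7 FPKM in long RNA. Eomes, with 1.11 and 1.37 FPKM in mRNA, was not lower there. Oocyte markers had sums of 37.9 and 52.2 FPKM in mRNA, and neither of the 2 measured was called. Of primitive endoderm markers, 1 of 4 measured in mRNA and none of 3 in long RNA was lower, beside the same shares of all rows. The lower one was Dab2, with 5.54 and 1.45 FPKM in mRNA. Gata4, with 0.855 and 2.45 FPKM in mRNA, went the other way there and was not called. The part of these other markers in the differences described below was not tested.

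A row was called higher or lower when its log2((Drosha-deficient FPKM + 1)/(wild-type FPKM + 1)) reached 1 or -1, a 2-fold difference after adding the pseudocount of 1. Only rows with the authors' status OK and a value of 1 FPKM or more in either library were compared. All 12 genes met this in both fractions, and each was higher in Drosha-deficient cells in both. In mRNA 8.64% of the 14752 rows compared were higher by this rule and 7.93% lower, while the long RNA shares were 6.26% higher and 6.89% lower of 13933, and in both fractions 4.58% of 13322 were higher. The median log2 difference of the 12 was 2.36 in mRNA, where that of all rows was 0.01, and 2.25 in long RNA, where that of all rows was -0.04. A row below 1 FPKM in wild type enters the comparison only through a higher Drosha-deficient value, so its direction is set by the filter. In mRNA 8 of the 12 genes entered that way, and 43.9% of all rows that did were called higher. The other 4 were Zscan4c, Zscan4d, Zscan4f and Tcstv3; of all rows at 1 FPKM or more in wild type, 6.65% were called higher. In long RNA 9 genes entered that way, beside 44.0% of all such rows called higher, and the other 3 were Zscan4c, Zscan4d and Zscan4f, beside 4.01%. In bulk RNA, more cells in the 2-cell-like state and more RNA in each such cell cannot be told apart.

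**Figure D1:**
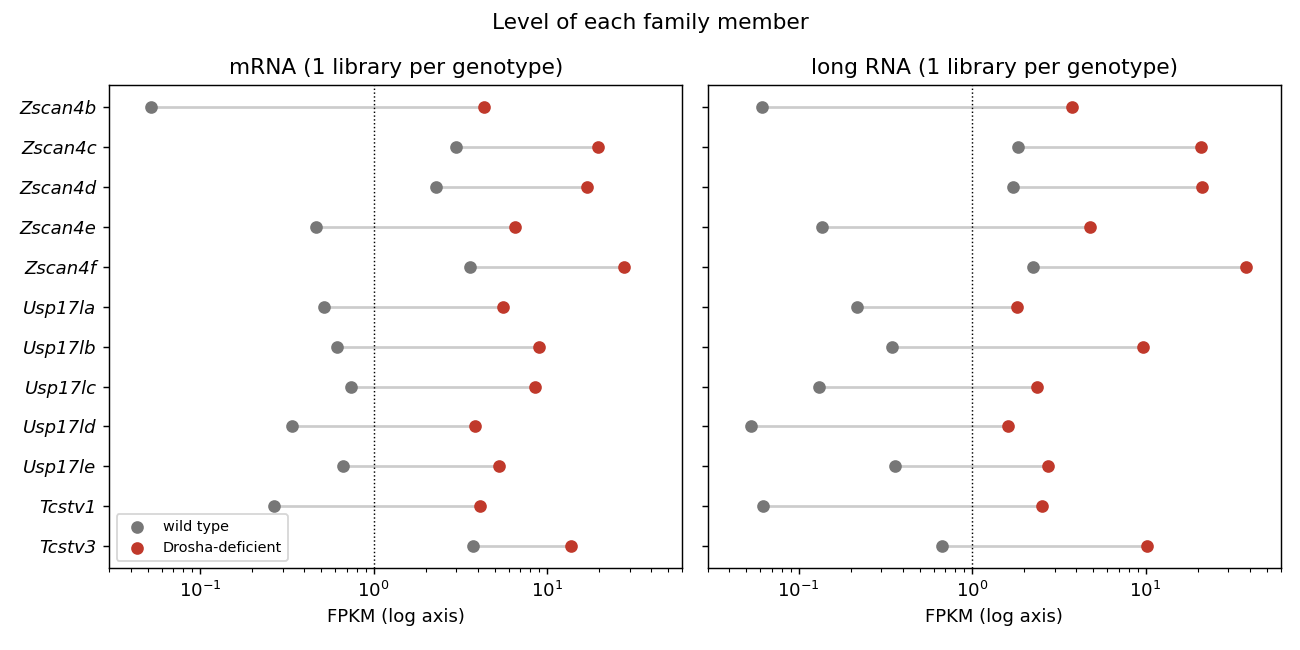
FPKM on a log axis of each of the 12 genes in mRNA (left) and long RNA (right), with 1 library per point: grey for wild type, red for Drosha-deficient, joined by a line. The dotted line marks 1 FPKM. Every red point lies to the right of its grey point, and 8 grey points in mRNA and 9 in long RNA lie below 1 FPKM.

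The Zscan4 rows lie in 502 kb of chromosome 7 (10900740 to 11402741, mm10/GRCm38). Zscan4f, with the highest level of the 12 genes in Drosha-deficient cells, had 3.61 against 27.8 FPKM in mRNA and 2.25 against 37.8 FPKM in long RNA (chromosome 7, 11397915 to 11402741). Zscan4c, the copy most often described in ES cells, had 2.99 against 19.6 FPKM in mRNA and 1.84 against 20.9 FPKM in long RNA (11005722 to 11010547). Zscan4d, the copy known as the main one of the 2-cell embryo, had 2.29 against 16.98 FPKM in mRNA and 1.73 against 21.3 FPKM in long RNA (11161374 to 11166182). These 3 copies were thus expressed in wild type at a few FPKM, and in each fraction the Drosha-deficient library lay above the wild-type library for each of them.

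Zscan4e, which RefSeq lists as a pseudogene, had 0.465 against 6.55 FPKM in mRNA and 0.136 against 4.76 FPKM in long RNA. Zscan4b had 0.0521 against 4.34 FPKM in mRNA and 0.0619 against 3.76 FPKM in long RNA. The wild-type values of Zscan4b stand for at most 4.85 fragments in mRNA and 4.92 in long RNA, taking the whole span of the row as transcript length, so no fold is given for it. Among the other 4 copies the fold ran from 6.55 for Zscan4c to 14.1 for Zscan4e in mRNA, and from 11.4 for Zscan4c to 34.9 for Zscan4e in long RNA. The wild-type long RNA value of Zscan4e stands for at most 10.8 fragments, so the size of that fold is uncertain. In each of the 4 libraries the level of Zscan4f was highest and those of Zscan4b and Zscan4e were lowest. The Zscan4 sum takes the copies, which may share reads, as a whole. It was 9.40 and 75.2 FPKM in mRNA, 8.004-fold higher, and 6.02 and 88.4 FPKM in long RNA, 14.7-fold higher. Zscan4c, Zscan4d and Zscan4f made up 94.5% of the mRNA sum in wild type and 85.5% in Drosha-deficient cells, and 96.7% and 90.4% in long RNA. Zscan4b went from 0.554% to 5.77% of the mRNA sum, and Zscan4e from 4.94% to 8.71%. The remaining shares of the family moved by less in relation to their size, with Zscan4f at 38.4% and 36.9% in mRNA.

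The Usp17l rows lie further along chromosome 7, in 2 groups: Usp17ld and Usp17lc at 103249737 to 103419880, and Usp17le, Usp17lb and Usp17la at 104768160 to 104862667. In wild type all 5 were below 1 FPKM in both fractions. Usp17lb, also called Dub1a, had the highest level in Drosha-deficient cells, with 0.613 against 9.01 FPKM in mRNA and 0.344 against 9.69 FPKM in long RNA (104840257 to 104842603). Usp17lc, also called Dub2, had 0.744 against 8.51 FPKM in mRNA and 0.132 against 2.36 FPKM in long RNA. Usp17la, also called Dub1, had 0.519 against 5.56 FPKM in mRNA and 0.218 against 1.82 FPKM in long RNA. So these 3 deubiquitinase genes came to between 5.56 and 9.01 FPKM in Drosha-deficient mRNA, while in long RNA Usp17lb stood well above the others.

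Usp17le had 0.666 against 5.30 FPKM in mRNA and 0.360 against 2.74 FPKM in long RNA. Usp17ld had 0.338 against 3.85 FPKM in mRNA and 0.0533 against 1.60 FPKM in long RNA, where its wild-type value stands for at most 2.72 fragments. In mRNA the fold of the 5 rows ran from 7.96 for Usp17le to 14.7 for Usp17lb. In long RNA it ran from 7.61 for Usp17le to 28.2 for Usp17lb, leaving out Usp17ld. The wild-type long RNA value of Usp17lb stands for at most 14.9 fragments, so the size of its fold is uncertain. The Usp17l sum was 2.88 and 32.2 FPKM in mRNA, 11.2-fold higher, and 1.11 and 18.2 FPKM in long RNA, 16.5-fold higher. The share of Usp17lb in that sum was 21.3% in wild-type and 27.9% in Drosha-deficient mRNA, and 31.1% and 53.2% in long RNA. Usp17le went the other way, from 23.1% to 16.5% in mRNA and from 32.5% to 15.0% in long RNA.

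The 2 Tcstv rows lie on chromosome 13. Tcstv3 (120317567 to 120318076) had 3.76 and 13.7 FPKM in mRNA, 3.65-fold higher, and 0.670 and 10.2 FPKM in long RNA, 15.2-fold higher. The wild-type long RNA value of Tcstv3 stands for at most 6.30 fragments, so the size of that fold is uncertain. Its fold in mRNA was the lowest of the 12 genes, and its row covers 510 bases where RefSeq gives the gene 1400. Tcstv1 (119893388 to 119894785) had 0.266 against 4.13 FPKM in mRNA and 0.0625 against 2.53 FPKM in long RNA, where the wild-type value stands for at most 1.61 fragments. The Tcstv sum was 4.03 and 17.8 FPKM in mRNA, 4.43-fold higher, and 0.732 and 12.7 FPKM in long RNA, 17.4-fold higher. The long RNA fold of the sum rests on the same few wild-type fragments. Tcstv3 held 93.4% of the mRNA sum in wild type and 76.9% in Drosha-deficient cells.

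**Figure D2:**
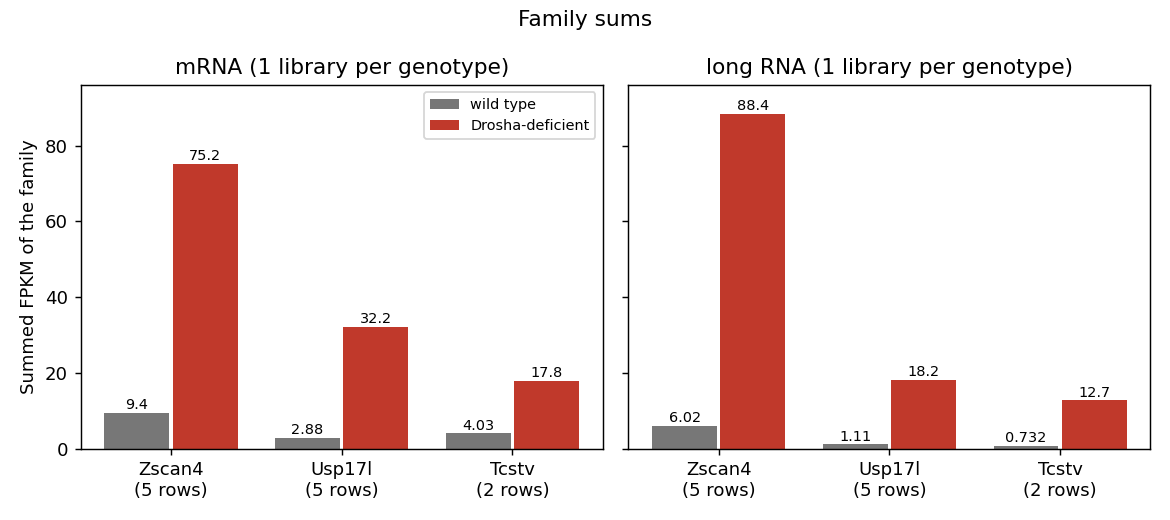
Summed FPKM of each family (bars, starting at 0, 1 library each) in mRNA and long RNA, grey for wild type and red for Drosha-deficient. The Zscan4 sum is 9.40 against 75.2 FPKM in mRNA and 6.02 against 88.4 FPKM in long RNA, and in Drosha-deficient cells it exceeds the Usp17l and Tcstv sums.

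**Figure D3:**
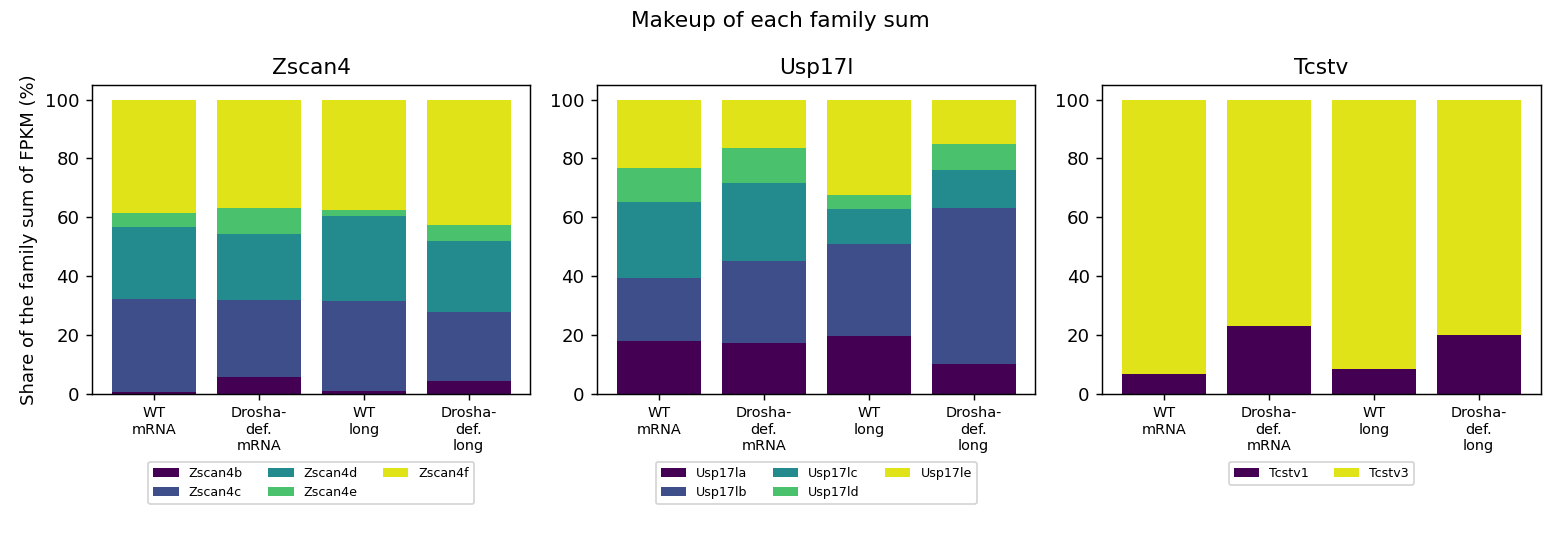
Share in percent of each gene in its family's sum of FPKM, for the 4 libraries. Zscan4c, Zscan4d and Zscan4f hold most of the Zscan4 sum in every library, Tcstv3 holds most of the Tcstv sum, and Usp17lb holds 53.2% of the Usp17l sum in Drosha-deficient long RNA.

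The families differed in how their levels stood in the 2 fractions. The mRNA and long RNA tables were normalized separately, so ratios between them are read against all rows: over the 13205 rows with values in both, the median long RNA level was 0.645 of the mRNA level in wild type and 0.633 in Drosha-deficient cells. The Zscan4 sum in long RNA was 0.640 of that in mRNA in wild type and 1.18 in Drosha-deficient cells. For the Usp17l sum these ratios were 0.385 and 0.566, and for the Tcstv sum 0.182 and 0.714. The wild-type Tcstv ratio rests on few long RNA fragments. All 3 ratios of sums were higher in the Drosha-deficient libraries, but not those of every row: the ratio went from 1.19 to 0.867 for Zscan4b, from 0.420 to 0.328 for Usp17la and from 0.541 to 0.517 for Usp17le. The wild-type ratio of Zscan4b rests on at most 4.85 fragments in mRNA and 4.92 in long RNA. With a pseudocount of 5 the log2 difference of the Usp17l sum was larger in mRNA (2.24) than in long RNA (1.93). Within Usp17l the ratio in Drosha-deficient cells was 1.08 for Usp17lb and between 0.278 and 0.517 for the other 4.

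Among all rows compared, the 12 genes ranked between place 131 (Zscan4f) and place 489 (Tcstv3) of 14752 by log2 difference in mRNA, and between place 12 (Zscan4f) and place 613 (Usp17la) of 13933 in long RNA. The filter set the direction of the 8 genes in mRNA and the 9 in long RNA below 1 FPKM in wild type. Those genes could not rank among the lower rows. The log2 differences ran from 1.63 for Tcstv3 to 2.64 for Zscan4f in mRNA, and from 1.21 for Usp17la to 3.58 for Zscan4f in long RNA. The authors' deposited tables mark 19 rows as significant in each fraction, and none of the 12 genes is among them. The q-values of the 12 in the authors' deposited tables run from 0.440 to 0.9986 in mRNA and from 0.348 to 0.9997 in long RNA. Those q-values come from 1 library per genotype.

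**Figure D4:**
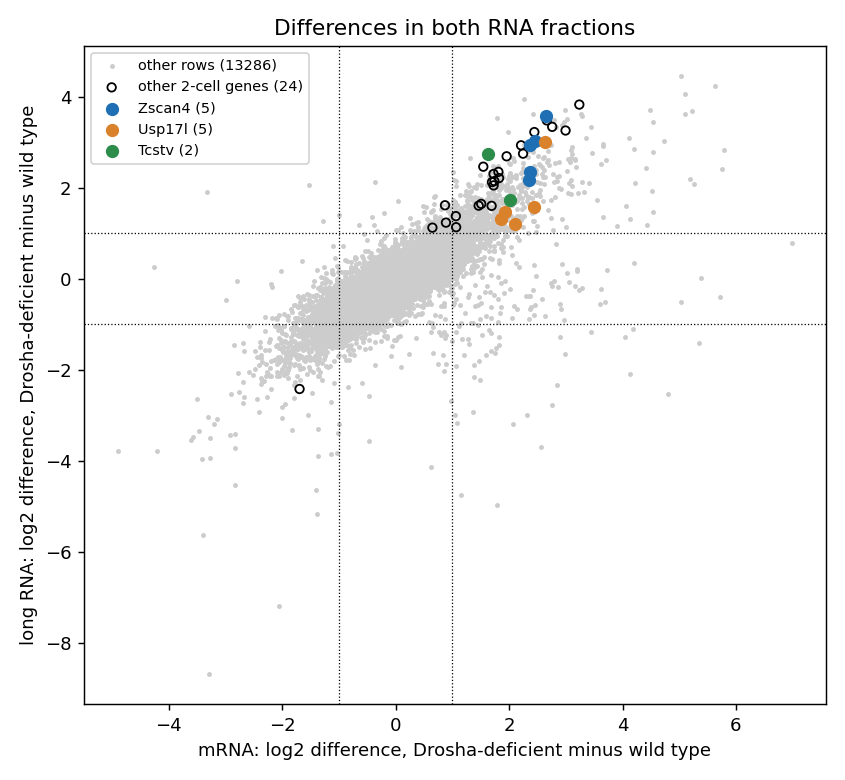
Log2 difference (Drosha-deficient minus wild type, pseudocount 1) in mRNA on the x axis and in long RNA on the y axis, 1 point per row compared in both fractions; dotted lines mark a difference of 1 in size. The Zscan4, Usp17l and Tcstv rows and most of the other 2-cell genes (open circles) lie in the upper right, beyond 1 on both axes.

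Other genes of the 2-cell-like state were taken from a list of 48 names outside the 3 families. In mRNA 20 of 26 measured were higher, beside 8.64% of all rows, and 1 lower. Their median log2 difference was 1.71. In long RNA the list gave 24 higher genes and 1 lower gene out of 25, and a median of 2.14, beside 6.26% of all rows called higher. Below 1 FPKM in wild type, where the filter set the direction, were 11 genes in mRNA, 8 of them called higher. In long RNA there were 17 such genes, all called higher. Of all such rows 43.9% and 44.0% were called higher. Among genes at 1 FPKM or more in wild type, 12 of 15 were higher in mRNA, beside 6.65% of all such rows. The long RNA count was 7 of 8, beside 4.01%. Both fractions had values for 24 genes, and 20 of them were higher in both, beside 4.58% of all rows. Those with the largest smaller difference were Gm5662 (2.69 and 33.8 FPKM, mRNA), Gm6763 (6.77 and 60.9 FPKM), Gm21761 (1.53 and 16.2 FPKM) and Gm4340 (4.07 and 31.1 FPKM), predicted genes that also belong to multicopy groups. The lower gene was Usp26, a deubiquitinase gene of the X chromosome, with 3.61 against 0.426 FPKM in mRNA and 8.01 against 0.687 FPKM in long RNA. Genes of this list known outside multicopy families included Tmem92 (1.65 and 8.29 FPKM in mRNA), Arg2, an arginase (0.923 and 5.42 FPKM), and Zfp352, a zinc finger gene (0.273 and 1.66 FPKM). Arg2 and Zfp352 were below 1 FPKM in wild-type mRNA, so the filter set their direction. Zfp750, with 1.59 and 2.60 FPKM in mRNA, was not called.

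The 5 other rows nearest to the mean profile of the 12 genes, by Euclidean distance over log2(FPKM + 1) in the 4 libraries, were Lgals4, RP23-8J15.8, Tmem92, Gm12435 and Rpl30-ps11, at distances from 0.213 to 0.433. Lgals4, a galectin gene, had 1.27 against 8.90 FPKM in mRNA and 0.430 against 5.65 FPKM in long RNA. The 12 genes themselves lay at distances from 0.685 (Usp17lb) to 3.31 (Zscan4f), farther from their own mean than these 5. Only Tmem92 of the 5 is on the list of other 2-cell genes.

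Regulators known to switch this state on or to hold it back were called higher in 1 of 30 measured in mRNA (3.33%, beside 8.64% of all rows) and in 2 of 29 in long RNA (6.90%, beside 6.26% of all rows), and none was lower in either. The long RNA share, of 2 genes, lies near that of all rows. All regulators measured were at 1 FPKM or more in wild type. Of all rows at that level, 6.65% in mRNA and 4.01% in long RNA were called higher. The median log2 differences of the regulators were 0.41 and 0.28. The gene higher in both was Dppa2, which acts upstream of Dux, with 12.7 against 43.1 FPKM in mRNA and 5.73 against 19.1 FPKM in long RNA. Its partner Dppa4 had 69.6 against 60.2 FPKM in mRNA and 38.2 against 55.6 FPKM in long RNA, and it was not called. The other called regulator was the histone deacetylase gene Hdac1 in long RNA, with 2.32 and 5.69 FPKM. No row carried the name Dux or Duxf3, so this factor was not analysed here.

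Among the repressors, Trim28, the corepressor of zinc finger silencers, had 638 against 840 FPKM in mRNA and 548 against 761 FPKM in long RNA. Kdm1a, a histone demethylase, had 105 against 116 FPKM in mRNA and 87.1 against 77.9 FPKM in long RNA. Chaf1a, a subunit of the CAF-1 histone chaperone, had 25.8 against 34.8 FPKM in mRNA and 17.8 against 17.3 FPKM in long RNA. Chaf1b, another CAF-1 subunit, had 59.1 against 37.7 FPKM in mRNA and 32.7 against 19.4 FPKM in long RNA, log2 differences of -0.64 and -0.72. These 4 repressors were called in neither fraction. Rif1, which binds telomeres and replication origins and represses Zscan4 in ES cells, had 81.5 and 156 FPKM in mRNA, a log2 difference of 0.93 that stayed under the size for a call.

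Telomere genes were listed because Zscan4 is known to act on telomeres. Of 13 measured, 1 was lower in mRNA (7.69%, near the 7.93% of all rows) and none was called in long RNA, with medians of -0.02 and -0.05. The lower one was Dmc1, a recombinase of meiosis linked to Zscan4 foci, with 8.49 against 2.52 FPKM in mRNA and 5.51 against 3.08 FPKM in long RNA. Tert, the catalytic subunit of telomerase, had 5.36 and 4.02 FPKM in mRNA.

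The rows lying between the genes of a family were then examined. Between the first and the last Zscan4 row there were 3 other rows, and none could be compared. Between the first and the last Usp17l row, over 1613 kb, there were 102 other rows, of which 6 could be compared in mRNA and 6 in long RNA. None of them was called higher in either fraction; in long RNA 2 were lower. All of them were at 1 FPKM or more in wild type, while all 5 Usp17l rows were below it and entered only through their Drosha-deficient value, so the rows between are not a like comparison. Gm4887, which lies between Usp17le and Usp17lb, had 16.5 against 16.7 FPKM in mRNA and 18.0 against 14.3 FPKM in long RNA. Trim6, a ubiquitin ligase gene between the 2 Usp17l groups, had 28.4 against 45.3 FPKM in mRNA and 21.0 against 25.1 FPKM in long RNA.

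The interval between Tcstv1 and Tcstv3 spans 424.7 kb of chromosome 13. Of 9 other rows measured in mRNA 6 were higher, of 8 in long RNA 7, and none was lower in either. Of the higher rows, 2 in mRNA and 5 in long RNA were below 1 FPKM in wild type, so that the filter set their direction, and 43.9% and 44.0% of all such rows were called higher. At 1 FPKM or more in wild type, the mRNA count was 4 of 6 and the long RNA count 2 of 3, beside 6.65% and 4.01% of all such rows. Gm20900 had the highest level there, with 15.1 against 55.3 FPKM in mRNA and 5.23 against 33.4 FPKM in long RNA. Gm21761 and AF067061, both on the list of other 2-cell genes, were higher in both fractions, with 2.59 and 9.48 FPKM in mRNA for AF067061. The row that was called in neither fraction was Gm20784, with 5.69 against 5.35 FPKM in mRNA and 7.84 against 6.64 FPKM in long RNA. Several of these rows may be further copies of one another, and read sharing among them was not checked.

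**Figure D5:**
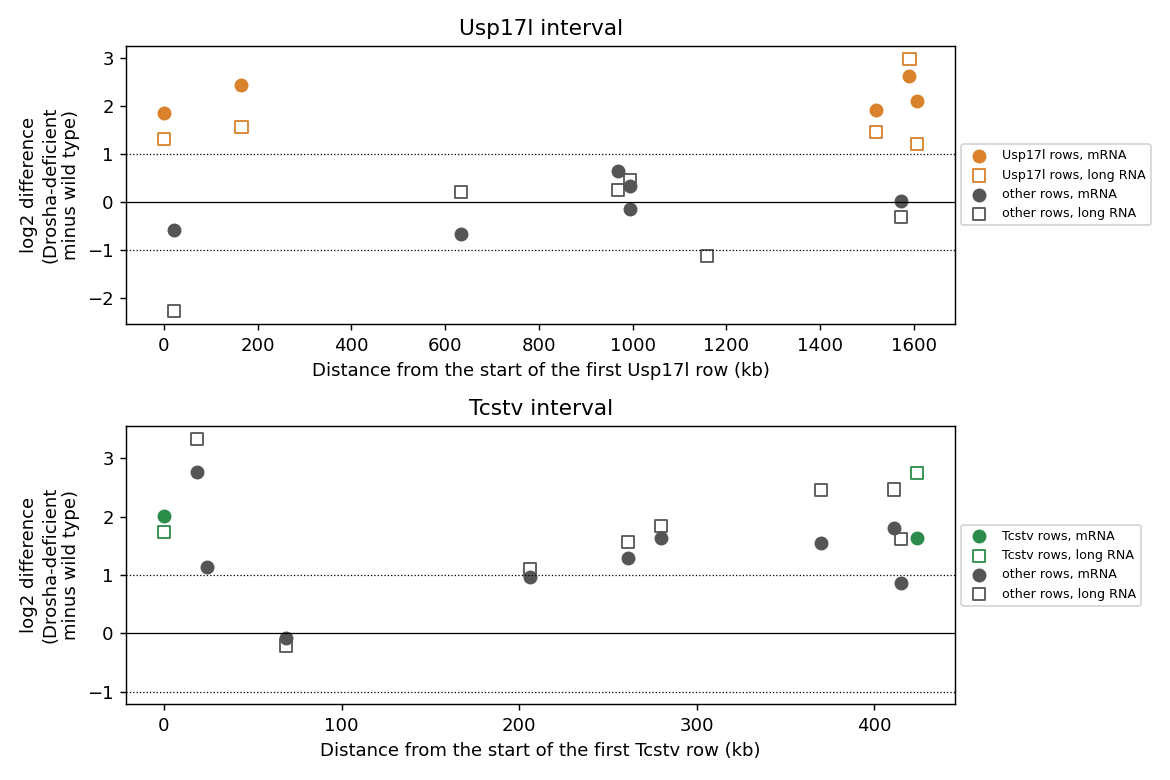
Log2 difference (Drosha-deficient minus wild type) of the rows compared between the first and last Usp17l row (top) and the first and last Tcstv row (bottom), by distance in kb from the start of the first row; filled circles are mRNA, open squares long RNA, and dotted lines mark a difference of 1 in size. In the top panel only the Usp17l rows lie above 1, and in the bottom panel most of the other rows lie above 1 as well.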

How the data were processed

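The authors deposited 3 tables of gene-level FPKM values, with wild type first and Drosha-deficient second, per the file headers. The deposited log2 fold changes and the deposited p-values and q-values are Cuffdiff's, per the file headers, and compare single libraries. The submitters' processing notes name TopHat2 2.0.10, Cufflinks 2.1.1, Cuffdiff and bcl2fastq 1.8.4, with the build mm10/GRCm38. Neither the treatment of reads that map to several copies nor the use of strand nor the library scaling is stated there. No label says long RNA; that table was matched by elimination to the total RNA samples, since the other 2 tables match the remaining titles. Per the labels, RNA libraries came from a small RNA kit.

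FPKM values are not counts, and 1 library per genotype allows no test. Log2 differences used a pseudocount of 1, which understates the differences of low genes. Library sizes were estimated from the most frequent step of low values over pseudogene rows of 800 to 4000 bases; the largest possible number of fragments behind a value takes the row's span as transcript length. Start coordinates in the tables count from 0 and are given here from 1. Gene names came from the tables, and all 12 matched the RefSeq table. Promoters were aligned in Biopython 1.88 with free end gaps. Named genes followed a rule (all family members, the 5 nearest rows, up to 4 list genes called the same way in both fractions, and a set of regulators). Tmem92, Arg2, Zfp352, Zfp750, Usp26, Hdac1, Chaf1b, Lin28a, Dmc1, Tert, Abcb5, Krt18, Eomes, Twist1, Dcn, Tfcp2l1, Klf4, Dab2, Gata4 and the rows between the families were named after their values were seen. The calling step was tested on simulated data, with 4-fold differences placed only in rows at 5 FPKM or more in wild type. All 12 genes were below that level in wild type, so the simulation does not cover calls at their levels. It did not model variation between libraries of a genotype. The members and lists were chosen with earlier results of these data known. Not analysed here were 3 RNA samples of Dnmt1-deficient cells and 3 methylation samples.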

Additional observations from a re-analysis of the deposited data

Results flagged for a closer look

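The short RNA libraries, which the comparisons above do not use, also held fragments of all 3 families. They show a signal in Drosha-deficient cells above the wild-type level: the Zscan4 sum was 1.30 and 20.5 FPKM, the Usp17l sum 0.154 and 6.42 FPKM, and the Tcstv sum was listed at 0 in wild type and 4.68 FPKM in Drosha-deficient cells. The highest single row was Zscan4f, with 0.609 and 10.1 FPKM. These libraries held about 2670000 and 2960000 fragments, where 1 fragment on 1 kb stands for 0.375 and 0.337 FPKM, and only Zscan4d, Zscan4f and Tcstv3 had the authors' status OK. The Drosha-deficient values of Tcstv3 and Tcstv1 stand for at most 6.49 and 1.62 fragments. The FPKM of all rows summed to 4060450 in wild type and 873840 in Drosha-deficient cells. The part of this unlike makeup in the differences of the families was not tested.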

How the results depend on the processing

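Each of the 12 genes was higher in Drosha-deficient cells in both fractions under every alternative that gave it a value. This was nearly fixed in advance, because the alternatives reuse the same values. Of them, only subtracting the median of all rows could change a direction, and those medians were 0.01 in mRNA and -0.04 in long RNA. The number called depended on the pseudocount and the threshold. The share of all rows called was not computed under these alternatives, so the counts below cannot be read against it. With a pseudocount of 5, 7 of 12 genes were called in mRNA and 5 in long RNA, with medians of 1.09 and 0.86; the Usp17l and Tcstv sums in long RNA then differed by 1.93 and 1.63 on the log2 scale, against 3.19 and 2.99. With a pseudocount of 0.1 the median in long RNA was 3.64. With a minimum of 5 FPKM, 5 genes were left in long RNA, all called. At 4-fold, 7 genes were called in long RNA. Taking the 3 family sums in place of rows, 3 of 3 were called in each fraction. The number of other 2-cell genes called was 9 in mRNA and 14 in long RNA with a pseudocount of 5, 7 and 15 at 4-fold, and 15 in long RNA with a minimum of 5 FPKM. The number of regulators called higher was 2 in mRNA with a pseudocount of 0.1 and 1 in long RNA with one of 5, 7 and 4 at 1.5-fold, and 0 in both at 4-fold. At 1.5-fold 1 regulator was lower in mRNA (Chaf1b) and 2 in long RNA (Chaf1b and Lin28a). Subtracting the median of all rows moved no count by over 1.5 times. No paired analysis was possible because each group has 1 library. Wild-type values of a few fragments limit the folds of single copies most.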
